A study of Mus musculus with 2 samples.

Results

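The miR-130 and miR-301 family of mouse microRNAs is described here in the fetal intestine, where it held 2.61% ± 0.0375 of all reads counted on miRNA genes (SD, n = 2 libraries). The members are the genes Mir130a, Mir130b, Mir301 (also called Mir301a) and Mir301b. They were chosen by name, as the genes of that name in the GENCODE annotation, and all 4 had a row among the 1973 miRNA genes counted. RNA under 30 nucleotides was sequenced from intestine of healthy B6NCrl mouse embryos at embryonic day 16.5, with males and females pooled. The labels name 2 biological replicates, from separate tissue samples, and no other condition, so the design holds no treated, mutant or later group. Intestines of 41 embryos went into replicate 2, while for replicate 1 the labels state no number.

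A microRNA is excised from a hairpin precursor and pairs with messenger RNAs mainly through its seed, bases 2 to 8 from its 5′ end, to lower their translation and stability. The miR-130 and miR-301 miRNAs share a seed and so can pair with the same sites. In human endothelial cells miR-130a represses the antiangiogenic homeobox genes GAX and HOXA5, and in human preadipocytes miR-130 represses PPARG, the master regulator of fat cell formation. In human pancreatic cancer cells miR-301a represses NKRF, an inhibitor of NF-κB.

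RefSeq (build GRCm38.p6, the mm10 assembly) lists no mature arm with the seed for Mir301b. The arms with the seed that it lists for 3 members show how these are alike and where they part. They are printed 5′ to 3′ with the seed in capitals, because every comparison below rests on telling these sequences apart. They lie at chr2:84741116-84741137 (minus strand), chr16:17124071-17124092 (minus strand) and chr11:87113054-87113076 (plus strand).
miR-130a-3p: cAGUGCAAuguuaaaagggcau
miR-130b-3p: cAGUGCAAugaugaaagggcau
miR-301a-3p: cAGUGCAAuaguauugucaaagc
After the seed they fall into 2 kinds of 3′ part. Counted from the 5′ end of miR-130a-3p, the Mir130b hairpin matched it at 20 of 22 bases and differed by U11A and A13G. The Mir301 hairpin matched the same arm at 12 of 22 bases, of which the first 9 were unbroken.

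Mir130b and Mir301b are neighbours, and their hairpins are printed whole to show that each holds the seed letters (capitals) exactly once, in its 3′ part. They lie at chr16:17124061-17124142 and chr16:17124400-17124496, both on the minus strand.
Mir130b hairpin: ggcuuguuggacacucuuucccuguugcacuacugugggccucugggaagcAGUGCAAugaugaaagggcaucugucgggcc
Mir301b hairpin: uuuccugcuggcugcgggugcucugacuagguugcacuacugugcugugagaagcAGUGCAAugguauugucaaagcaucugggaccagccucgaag
The letters AGUGCAA occurred in 12 of the 1005 mouse hairpins in the RefSeq table (1.19%), the 4 members included. Their reverse complement, UUGCACU, occurred in 14 hairpins (1.39%), of which 3 were members. In the hairpins above it lies in the 5′ part, and the 2 motifs cannot overlap. The arm miR-301a-3p matched the Mir301b hairpin at 22 of 23 bases, with A10G, counted from its 5′ end, as the difference. Of runs without a mismatch, the longest that a member hairpin shared with any of the 1004 others was 17 bases for Mir130a (with Mir6389) and 16 bases for Mir130b (with Mir6368), Mir301 (with Mir301b) and Mir301b (with Mir301). These runs are shorter than each of the 3 member arms printed above.

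Other mouse genes carry the same seed, and none of those with a row gave a read. RefSeq lists 7 mature arms with it, 3 of them of members and none of Mir301b, whose seed is read from its hairpin. The arms that are not of members are printed to show how far each departs from miR-130a-3p beyond the seed. In the order printed they lie at chr9:53400808-53400829 (minus strand), chr1:12426016-12426038 (plus strand), chr7:57581070-57581090 (plus strand) and chr5:136375777-136375797 (minus strand).
miR-130c: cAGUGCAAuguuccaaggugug
miR-6341: cAGUGCAAugauauugucacuau
miR-6389: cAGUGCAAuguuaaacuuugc
miR-721: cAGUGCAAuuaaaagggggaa
Mir130c, Mir6341 and Mir6389 had 0 counts in both libraries, which allows up to 0.704 CPM in replicate 1 and 0.528 CPM in replicate 2 (3 counts per library; counting error only). CPM is the count on the strand of the gene per 1000000 such counts over all miRNA genes. By its observed counts Mir301b, the lowest member, stood 88.7-fold above that limit in replicate 1 and 124-fold above it in replicate 2. The counting error of Mir301b itself is left out of these folds. Mir721 was not analysed here.

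Each member had at least 266 counts in each library. The counts on the gene strand totalled 4261976 in replicate 1, from 8747512 reads, and 5680764 in replicate 2, from 10876035 reads. Multimapping reads, which made up 26.2% of replicate 1 and 25.7% of replicate 2, are outside every gene count. A gene whose mature miRNA also arises from another locus can therefore be counted too low. By name, Mir26a-1 and Mir26a-2 are copies of this kind, with mean levels of 10.7 and 38.3 CPM, against 32837 CPM for Mir26b. Ranks and shares are among the reads counted, and how far multimapping reads would change them was not tested. All 10 epithelial markers were detected in both libraries and summed to 10.8% and 12.3% of counts in replicates 1 and 2, and all 6 smooth muscle and mesenchyme markers to 18.6% and 17.8%. The endothelial Mir126a held 3.08% and 3.36%. The 6 blood markers summed to 0.149% and 0.129%, with Mir142b at 0 on the strand of the gene. Reads on the strand opposite to a marker are outside these sums, so the 0 of Mir142b is not a measure of blood content. The liver marker Mir122 held 0.0994% and 0.0448%, and the 3 pancreas markers summed to 0.000164% and 0.000475%. The tissue is bulk, so fewer cells of a type and less RNA per cell cannot be told apart in any level below.

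Mir130a was the leading member and among the miRNA genes with the most counts in the tissue. It lies on chromosome 2 (84741115 to 84741178, minus strand), in no other annotated gene, and the nearest annotated gene on its strand, Gm19426, is 990 bases away. It had 83575 counts in replicate 1 (19609 CPM, exact Clopper-Pearson 95% interval 19478 to 19742) and 116326 counts in replicate 2 (20477 CPM, 20361 to 20594). The replicates thus lay close together, at a mean of 20043 ± 614 CPM (SD, n = 2), rank 13 of all 1973 genes. It alone held 2.00% ± 0.0614 of all counts.

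Mir130b followed at rank 39. It lies on chromosome 16 (17124061 to 17124142, minus strand) within 2610318N02Rik, a protein-coding gene on the same strand, and overlaps an exon in 0 of that gene's 8 transcripts, of which 3 span it. It had 22062 counts in replicate 1 (5176 CPM, 95% interval 5109 to 5245) and 26765 counts in replicate 2 (4712 CPM, 4655 to 4768). The mean was 4944 ± 329 CPM, and here replicate 1 was the higher library.

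Mir301, the source of miR-301a, came next. It lies on chromosome 11 (87113004 to 87113089, plus strand) within Ska2, a gene for a protein of the spindle and kinetochore, on the same strand, and overlaps an exon in 0 of its 3 transcripts, of which 2 span it. It had 4206 counts in replicate 1 (987 CPM, 95% interval 957 to 1017) and 6313 counts in replicate 2 (1111 CPM, 1084 to 1139). The mean was 1049 ± 88.0 CPM, at rank 93, with replicate 2 the higher library.

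Mir301b, which shares its locus with Mir130b, was the lowest member. It lies on chromosome 16 (17124400 to 17124496, minus strand), 257 bases from Mir130b and within the same host gene, also clear of its exons. It had 266 counts in replicate 1 (62.4 CPM, 95% interval 55.1 to 70.4) and 373 counts in replicate 2 (65.7 CPM, 59.2 to 72.7). The intervals of the replicates overlap, the mean was 64.0 ± 2.30 CPM, and the rank was 213. Of the family, 3 of the 4 members lay above 129 CPM, the median level of the 364 genes with at least 20 counts summed, and Mir301b lay below it. A count is of reads on either arm of the hairpin, since the tables do not separate the arms, and counts were not divided by length, since a read spans the whole mature miRNA.

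**Figure D1:**
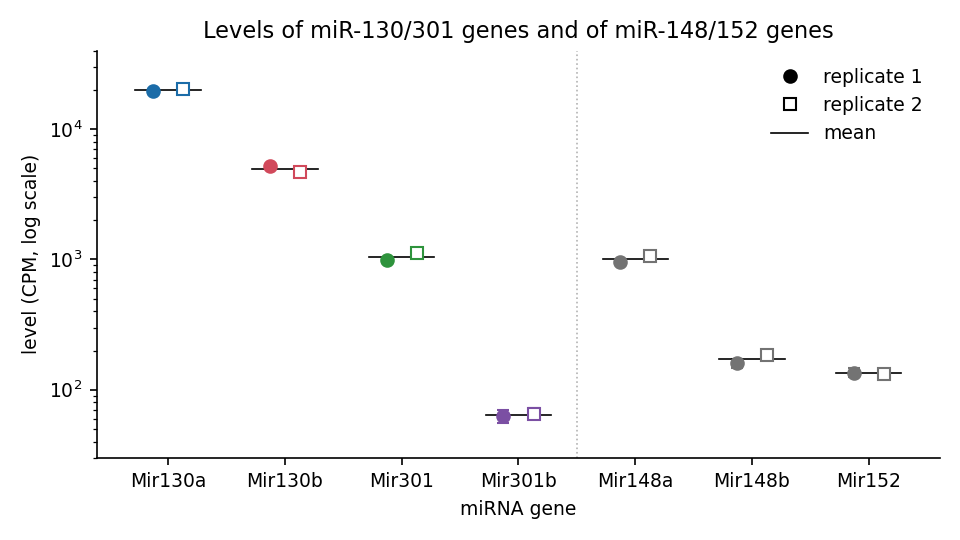
Level of each miR-130 and miR-301 gene and of the miR-148 and miR-152 genes in CPM on a log scale, with replicate 1 as filled circles, replicate 2 as open squares, exact 95% intervals for counting error and the mean as a line. The family spans from 20043 CPM for Mir130a to 64.0 CPM for Mir301b, and replicates of a gene lie far closer together than neighbouring members do.

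Within the family the order Mir130a, Mir130b, Mir301, Mir301b was the same in both libraries, and every step exceeded the spread between replicates. Mir130a stood 3.79 times above Mir130b in replicate 1 and 4.35 times in replicate 2 (mean 4.07 ± 0.395). Mir130b stood 5.25 and 4.24 times above Mir301 in replicates 1 and 2 (4.74 ± 0.711). Mir301 stood 15.8 and 16.9 times above Mir301b (16.4 ± 0.787), and from top to bottom Mir130a stood 314 and 312 times above Mir301b (313 ± 1.64). Between the libraries that last ratio had a counting error of 0.12 on the log2 scale, so its SD of 1.64 understates its uncertainty. As shares of the family's own counts, Mir130a held 75.9% in replicate 1 (95% interval 75.6 to 76.2) and 77.7% in replicate 2 (77.5 to 77.9). Mir130b held 20.04% and 17.9%, Mir301 3.82% and 4.21%, and Mir301b 0.242% and 0.249%. The shares of Mir301b have overlapping intervals, 0.213 to 0.272 and 0.224 to 0.276, and those of the other members do not overlap. Both libraries share any bias of the assay between sequences, so these are ratios of counts.

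**Figure D2:**
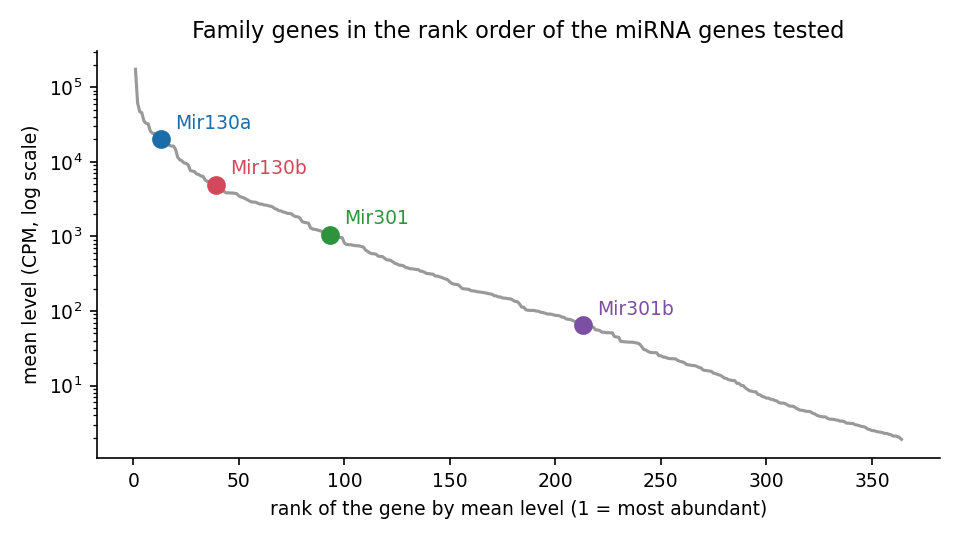
Mean level in CPM (log scale) of the 364 genes with at least 20 counts summed, in rank order as a line, with the 4 family genes as points. Mir130a sits at rank 13, Mir130b at 39, Mir301 at 93 and Mir301b at 213.

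By level, each member had near equals from other families. By the Euclidean distance of log2(CPM + 1) over the 2 libraries, the genes most like Mir130a were Mir200c, an epithelial miRNA of the miR-200 family (19400 and 18902 CPM in replicates 1 and 2), and Mir17 of the proliferation-associated miR-17/92 cluster (21720 and 19929 CPM), at distances of 0.116 and 0.153. Those most like Mir130b were Mir744 (5308 and 4731 CPM) and Mir30d (5213 and 4530 CPM), at 0.0368 and 0.0576. Those most like Mir301 were Mir148a (963 and 1061 CPM) and Mir188 (908 and 1083 CPM), at 0.0755 and 0.125. Those most like Mir301b were Mir30c-1 (62.4 and 62.8 CPM) and Mir449a (62.6 and 68.7 CPM), at 0.0623 and 0.0636. By name Mir30c-1 has a copy, Mir30c-2 (22.8 and 24.1 CPM), so its level may lack multimapping reads. In the order of all genes, the replicate values of each member overlapped those of the next gene above and the next below, except that Mir130a lay above Mir200c in both libraries.

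The miR-148 and miR-152 genes carry a related but shifted seed and were much less abundant as a group. Their arms are printed to show the shift: bases 2 to 8, in capitals, are the letters that open each of the miR-130 and miR-301 arms above. They lie at chr6:51269829-51269850 (minus strand), chr15:103285185-103285206 (plus strand) and chr11:96850439-96850459 (plus strand).
miR-148a-3p: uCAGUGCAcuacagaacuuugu
miR-148b-3p: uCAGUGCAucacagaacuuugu
miR-152-3p: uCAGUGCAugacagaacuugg
The 4 members of the miR-130 and miR-301 family summed to 25835 and 26366 CPM in replicates 1 and 2, against 1259 and 1376 CPM for Mir148a, Mir148b and Mir152 together. The ratio was 20.5 in replicate 1 and 19.2 in replicate 2 (19.8 ± 0.965), a gap far beyond the spread between replicates. The replicate values of Mir301 and Mir148a overlapped, at means of 1049 ± 88.0 and 1012 ± 68.9 CPM. Mir301b lay below all 3 genes of the shifted seed, of which Mir148b had 172 ± 16.8 CPM and Mir152 133 ± 2.75 CPM.

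The step between Mir130b and its neighbour Mir301b was large among adjacent miRNA genes. Mir130b had 82.9 times the level of Mir301b in replicate 1 and 71.8 times in replicate 2 (77.3 ± 7.91). Pairs of adjacent miRNA genes on 1 strand, under 10 kb apart and with at least 10 counts per gene and library, numbered 93. With the higher gene of each pair set over the lower, so that no ratio falls below 1, their median was 7.62, and 9 pairs had a larger ratio than Mir130b over Mir301b. Under 1 kb apart there were 63 pairs, again with a median of 7.62, and 7 had a larger ratio. How the counting treated a read with 1 mismatch is not given in the sources used here, and the part of the near match between miR-301a-3p and the Mir301b hairpin in this ratio was not tested. Multimapping reads are outside the counts of all pairs. In several pairs with a larger ratio the lower gene is by name 1 of a set of copies: Mir19b-1, Mir19b-2, Mirlet7c-1 or Mir30c-1. The part of multimapping reads in the median and in the numbers of larger pairs was not tested.

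**Figure D3:**
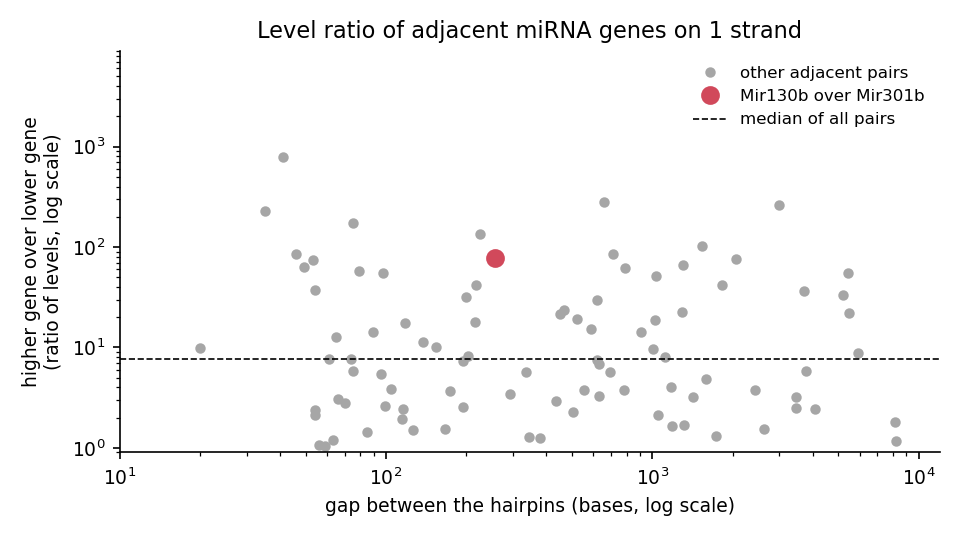
Ratio of the higher to the lower gene (log scale) for 93 pairs of adjacent miRNA genes on 1 strand, against the gap between their hairpins in bases (log scale). Mir130b over Mir301b, at a gap of 257 bases, lies at 77.3, well above the median of 7.62 drawn as a dashed line.

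The remaining comparison is between the replicates, given as replicate 1 over replicate 2 on a log2 scale after TMM scaling, a scaling that centres the ratios of most genes on 0. Mir130a, at 19609 CPM in replicate 1 and 20477 CPM in replicate 2, had a log2 ratio of -0.19 with a counting error of 0.0065 (adjusted p of the exact binomial test 4.11e-189). Mir301, at 987 and 1111 CPM, had -0.30 with a counting error of 0.029 (adjusted p of the exact binomial test 4.97e-25). Both were higher in replicate 2. Mir301b had -0.20 with a counting error of 0.12 and did not pass (adjusted p of the exact binomial test 0.134). Mir130b had 0.0063 with a counting error of 0.013 and did not pass either (adjusted p of the exact binomial test 0.721).

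Thus 2 of 4 members passed, both higher in replicate 2. Over all 364 genes tested 51.9% passed, 27.5% as higher in replicate 1 and 24.5% as higher in replicate 2, so the members' count is near the background. That background mixes genes of all depths, and the test detects smaller differences at higher counts. The members were not compared with genes of like depth. With TMM the median absolute log2 ratio was 0.20 for the members and 0.21 for all genes, and 198 genes had a larger ratio than Mir130a and 131 a larger one than Mir301. With total counts these medians were 0.10 and 0.23, and 325 and 223 genes had a larger ratio. Total counts shift every ratio by 0.13, and with them 3 of 4 members passed against 57.7% of all genes, 45.1% as higher in replicate 1 and 12.6% as higher in replicate 2. Mir130a (-0.062) and Mir301 (-0.17) were then higher in replicate 2, and Mir130b (0.14, adjusted p of the exact binomial test 3.33e-24) was higher in replicate 1. Over all genes the calls were 100 higher in replicate 1 and 89 in replicate 2 with TMM, and 164 and 46 with total counts. The test sets 2 libraries against counting error only and does not measure the spread between pools of embryos. The biological coefficient of variation that edgeR estimated from these libraries was 14.8%. On the same log2 scale the epithelial marker sum was -0.32 with TMM and -0.19 with total counts, and the endothelial marker -0.26 and -0.13. The epithelial genes ran from -0.79 (Mir215) to 0.036 (Mir375, the only positive gene) with TMM. With total counts they ran from -0.66 to 0.17, with Mir375, Mir200c and Mir192 positive. The mesenchymal sum, held mostly by Mir143 (-0.076 and 0.053), changed sign, from -0.067 with TMM to 0.063 with total counts. Of its other genes, Mir145a (0.14 and 0.27), Mir214 (0.12 and 0.25), Mir199b (0.31 and 0.44) and Mir199a-1 (1.01 and 1.14) were positive with both. Mir199a-2 (-0.18 and -0.051) was negative with both. The blood sum was 0.077 with TMM and 0.21 with total counts. Of its genes, Mir451a (0.30 and 0.43), Mir155 (0.20 and 0.33) and Mir144 (0.11 and 0.24) were positive with both. Mir150 (-0.68 and -0.55) was negative with both, and Mir223 (-0.027 and 0.10) changed sign. The liver marker Mir122 was 1.02 and 1.15. The pancreas sum was -1.59 and -1.46, from 7 counts in replicate 1 and 27 in replicate 2. The part of these markers in the members' ratios was not tested.

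**Figure D4:**
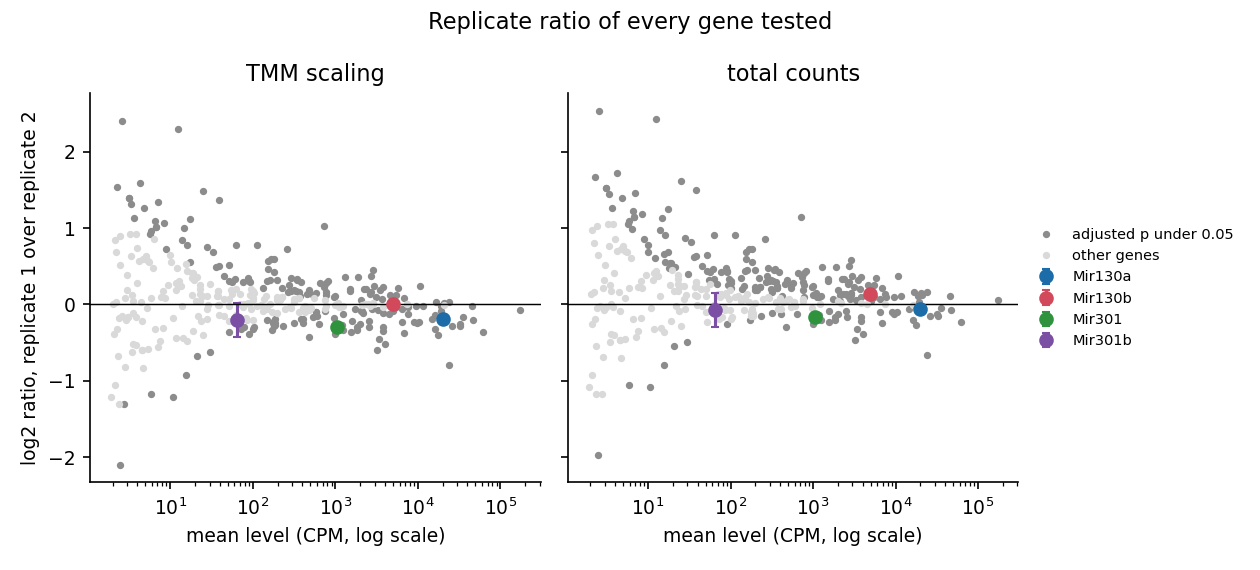
Log2 ratio of replicate 1 over replicate 2 against mean level in CPM (log scale) for 364 genes, with TMM scaling on the left and total counts on the right. Family genes are coloured with 95% counting intervals, dark grey genes passed the test, and Mir130b moves from 0.0063 to 0.14 between the panels while Mir130a and Mir301 stay below 0 in both.

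Ratios between members need no scaling between libraries, and 3 of the 6 differed between the libraries by more than counting error. Each of the 6 pairs was tested with Fisher's exact test on the counts of both libraries, two-sided, and the p-values are unadjusted. Mir130a over Mir130b was lower in replicate 1 than in replicate 2 by 0.20 on the log2 scale (counting error 0.015, p of Fisher's exact test 1.49e-41). Mir130b over Mir301 was higher in replicate 1 by 0.31 (counting error 0.032, p of Fisher's exact test 1.59e-22). Mir130a over Mir301 was higher in replicate 1 by 0.11 (counting error 0.029, p of Fisher's exact test 0.000222). These tests compare the reads of 2 libraries and leave out the spread between pools of embryos, against which differences of this size were not tested. The 3 pairs with Mir301b did not pass, among them its neighbour Mir130b (0.21, counting error 0.12, p of Fisher's exact test 0.0783). With 266 and 373 counts of Mir301b, its 3 pairs had larger counting errors than the other pairs, so a shift of that size could be missed at this depth.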

How the data were processed

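Each miRNA gene has raw read counts, as the authors deposited them; the readmes name mm10 and GENCODE release M4. Aligner, counter and trimming: not given in the sources used here. The tables hold unstranded counts and counts on each strand, told apart by their values. Rows without a gene were omitted: in replicate 1, 19.5% of reads were unmapped, 26.2% multimapping and 3.69% outside miRNA genes, and in replicate 2, 17.2%, 25.7% and 2.88%. CPM was computed from the gene-strand counts and their total. Symbols and loci came from GENCODE M21 (1894 of 1973 identifiers found) and sequences from RefSeq (GRCm38.p6). All 4 members had a gene in GENCODE and a hairpin in RefSeq, with the same start and end.

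With a single group, edgeR's quasi-likelihood test had no contrast. The replicates were compared, over the 364 genes with 20 or more counts summed, by an exact two-sided binomial test with expected shares from TMM (edgeR 4.0.16). P-values were adjusted by Benjamini-Hochberg at 0.05, and ratios used a prior of 0.5 counts. The code of the test was checked on simulated counts that held counting error only. That check leaves out the spread between pools of embryos. The likeness of levels used a pseudocount of 1 CPM. Genes were named by rule: members, genes with the same seed, genes within 10 kb, miR-148 and miR-152 genes, the 2 most alike genes per member, and cell type markers. The members, lists and tests were chosen with earlier results of these data known. Software was R 4.3.3, DESeq2 1.42.0, Python 3.11.15, pandas 2.3.3, numpy 2.4.6, scipy 1.17.1 and matplotlib 3.10.9. P-values and intervals cover counting error only, since each interval is of a single library and no test had replicates on either side. PCR copies could not be told apart, so even the counting error may be understated.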

Additional observations from a re-analysis of the deposited data

Results flagged for a closer look

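Reads on the strand opposite to Mir130a were above the limit that a count of 0 allows (3 counts). They numbered 5 in replicate 1 and 7 in replicate 2, or 0.00598% and 0.00602% of the unstranded counts of that gene, and were 0 at Mir130b, Mir301 and Mir301b in both libraries. These other members had fewer counts, so their 0 does not set Mir130a apart from them.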

How the results depend on the processing

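The summed level of the 4 members (26100 CPM) became 25134 CPM with unstranded counts, 31590 CPM without the most abundant gene in the total and 13179 per 1000000 reads of the library, each through the total it is divided by. With either replicate left out it ran from 25835 to 26366 CPM, the ratio of Mir130a over Mir130b from 3.79 to 4.35, and that of Mir130b over Mir301b from 71.8 to 82.9. Ratios between members kept within the spread between replicates with unstranded counts. The log2 ratio of replicate 1 over replicate 2 of Mir130b changed sign with DESeq2 size factors (-0.012, adjusted p of the exact binomial test 0.447) and with no filter on low counts, which also changes the TMM factors (-0.034, adjusted p of the exact binomial test 0.0389). Those of Mir130a, Mir301 and Mir301b kept their direction and their side of 0.05 with total counts, DESeq2 size factors, no filter, 200 counts summed and unstranded counts. At least 1.5-fold differences between replicates were found for 40 of the 364 genes tested (31 higher in replicate 1 and 9 in replicate 2). They were found for 0 of the 4 members, of which 2 passed without that minimum. With few genes past that minimum and only 4 members, this 0 does not set the family apart. Genes higher in replicate 1 and in replicate 2 numbered 164 and 46 with total counts, and 77 and 105 with no filter. With no filter, every gene with at least 1 count summed was tested, a larger set than the 364, and 3 of the 4 members passed. The 3 pairs of members under 0.05 in Fisher's exact test stayed under it with unstranded counts. No paired analysis was possible because both libraries belong to 1 group. Depth limits Mir301b (266 and 373 counts) and the seed-sharing genes at 0.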
